A study of Arabidopsis thaliana with 6 samples.

Results

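Squamosa promoter-binding protein-like (SPL) transcription factors set the pace at which Arabidopsis thaliana passes from juvenile to adult leaves and on to flowering. The 9 SPL genes described here are SPL2, SPL3, SPL4, SPL5, SPL6, SPL9, SPL10, SPL11 and SPL15, found by their locus identifiers among the 33602 genes listed for each library. They were picked with earlier results of the same comparison known, so their differences between the genotypes are given as a description, without a p-value. All 9 loci were found and all 9 passed the filter on low values. Expression had been measured by RNA sequencing in whole seedlings of the toc1-21 prr5-1 double mutant (labelled -/-) and of Col-0, the wild type, with 3 libraries of each genotype. All seedlings were 10 days of age, were raised at 22 °C under long days on MS plates supplemented with 3% sucrose and were harvested at ZT15, 15 h after lights came on. The sources used here do not say how the toc1-21 and prr5-1 alleles alter their genes. The series calls the libraries biological replicates, but nothing says which plants or cultures went into each, so every error below is the spread between these libraries and may be partly technical.

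SPL proteins bind DNA through a shared SBP domain and activate genes of leaf identity, shoot maturation and flowering. MicroRNA miR156, abundant in young seedlings, pairs with SPL transcripts, causes their cleavage and hinders their translation. The microRNA declines as the shoot ages, while SPL levels rise. SPL9 and its relatives in turn promote miR172, which restrains the AP2-type repressors of flowering. TOC1 and PRR5 are pseudo-response regulators of the circadian clock that repress transcription, TOC1 mainly around dusk. The title of the series concerns their part in photoperiodic hypocotyl growth, and the single comparison of its libraries asks which transcripts differ when both are mutated.

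The sequences that join these genes to the microRNA are shown first, because they divide the 9 genes into groups that the description then follows. All sequences were read from RefSeq's TAIR10.1 assembly and its annotation, and run 5′ to 3′. The mature microRNAs have their seed, bases 2 to 8, in capitals. MIR156A encodes miR156a-5p at chr2:10676534-10676553 on the minus strand, and MIR157A encodes miR157a-5p at chr1:24913276-24913296 on the minus strand. MIR156C and MIR156D encode the same mature sequence as MIR156A, and MIR157C the same as MIR157A.
miR156a-5p: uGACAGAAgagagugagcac
miR157a-5p: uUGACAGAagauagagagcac
In the SPL sites that follow, capitals mark bases that differ from the perfect complement of miR156a-5p. The site of SPL2 stands for 6 genes, since SPL6, SPL9, SPL10, SPL11 and SPL15 carry the same 20 letters.
SPL2 site: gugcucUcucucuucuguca
SPL3 site: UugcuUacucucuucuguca
SPL4 site: CugcucUcucucuucuguca
SPL5 site: CCgcucUcucucuucuguca
The 6 genes with the shared site hold it inside the coding sequence, with 1 mismatch. In SPL2 it lies at chr5:17360758-17360777 on the minus strand, in SPL6 at chr1:26006731-26006750 on the plus strand and in SPL9 at chr2:17589066-17589085 on the plus strand. In SPL10 it lies at chr1:9505541-9505560 on the minus strand, in SPL11 at chr1:9503618-9503637 on the plus strand and in SPL15 at chr3:21444834-21444853 on the minus strand. The other 3 genes hold the site in the 3′ UTR, with 2 mismatches in SPL3 (chr2:14305878-14305897, plus strand), 2 in SPL4 (chr1:19807090-19807109, plus strand) and 3 in SPL5 (chr3:5140598-5140617, minus strand). Over 31342 annotated genes, 13 (0.041%) held a stretch with at most 3 mismatches, and 11 of those were SPL genes: the 9 described here, SPL13A and SPL13B. A match of letters is a description of the sequence and does not show cleavage.

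The values deposited for each library are RPKM, reads scaled to gene length and library depth, and the libraries rested on 14617043 to 26792712 reads. Of the mutated genes, both gave less RNA in the mutant but were still detected in each of its libraries. TOC1 stood at 18.6, 14.8 and 17.2 RPKM in toc1-21 prr5-1, against 34.0, 32.0 and 34.9 RPKM in Col-0 (log2 fold change -0.96, limma adjusted p = 0.000187). PRR5 stood at 1.09, 0.926 and 1.35 RPKM in toc1-21 prr5-1, against 2.88, 3.01 and 2.92 RPKM in Col-0 (log2 fold change -0.89, limma adjusted p = 0.00371). The test was limma on log2(RPKM + 1), and a gene is termed called where its p, adjusted by Benjamini-Hochberg over all 19710 tested genes, was under 0.05. By this rule 769 genes were higher and 1311 lower in the mutant. The gene lists and markers below were also chosen with earlier results of these data known, so their calls and adjusted p are a description. Col-0 replicate 3 stood apart in its root signal. The mutant libraries summed to 72.4 to 87.4 RPKM over 7 root marker genes, while Col-0 replicates 1 and 2 summed to 86.3 and 87.8 RPKM and Col-0 replicate 3 to 43.0 RPKM. All log2 fold changes are toc1-21 prr5-1 over Col-0 on the log2(RPKM + 1) scale, which understates the change of low genes.

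Of the 9 SPL genes, SPL3 was higher in every mutant library than in any Col-0 library. The values of the other 8 overlapped between the genotypes. The fit over all genes placed 1 of the 9, SPL3, under the threshold, which is given as a description only. Over all tested genes 10.6% were called, 3.90% as higher and 6.65% as lower, and for 27.0% the values of the genotypes did not overlap. Since the genes were chosen on this same contrast, that count is no test of them and nothing is read from it beside those shares. The median log2 fold change of the 9 genes was -0.03, against -0.01 over all tested genes. In whole seedlings a difference in RNA per cell and a difference in the number of cells that express a gene cannot be told apart.

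**Figure D1:**
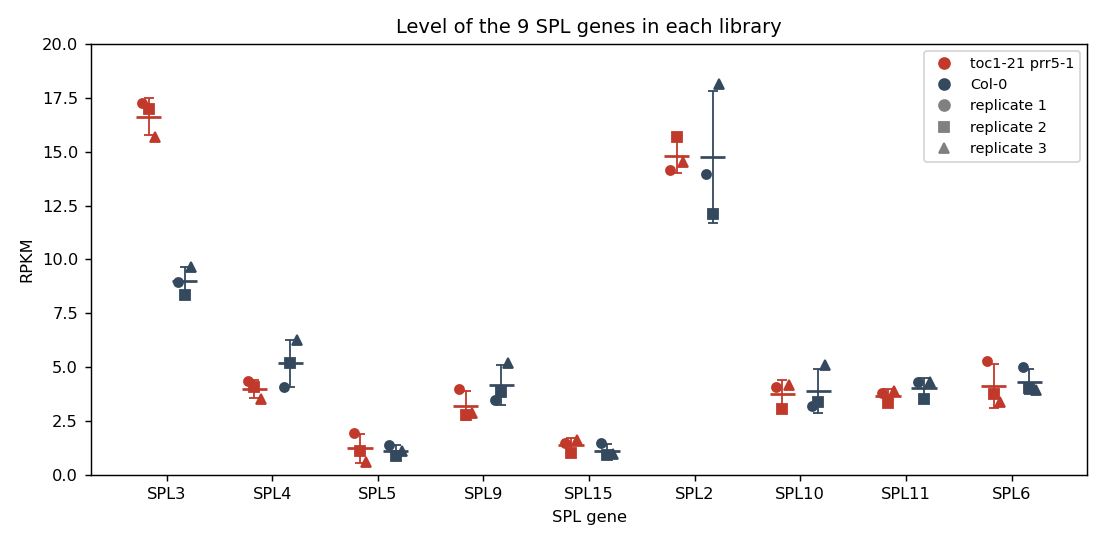
Level of each of the 9 SPL genes in RPKM, with 1 point per library (toc1-21 prr5-1 in red to the left, Col-0 in dark blue to the right, marker shape for the replicate number), a line at the mean and bars of 1 SD over 3 libraries. The mutant points of SPL3 lie between 15.7 and 17.3 RPKM, above its Col-0 points at 8.37 to 9.65 RPKM, while both genotypes overlap at each of the other 8 genes.

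SPL3, SPL4 and SPL5 encode small proteins that consist of little more than the SBP domain, and they promote flowering, in part through the floral meristem genes. SPL3 (AT2G33810, chr2:14305001-14306072, plus strand) stood at 17.3, 17.0 and 15.7 RPKM in mutant replicates 1 to 3, against 8.93, 8.37 and 9.65 RPKM in Col-0 replicates 1 to 3. All 3 mutant libraries were high and all 3 Col-0 libraries low, with a wide gap between them. The means were 16.6 ± 0.838 RPKM in the mutant and 8.98 ± 0.644 RPKM in Col-0 (SD, n = 3 each), a ratio of 1.85. The log2 fold change was 0.82 (SE 0.098, 95% interval 0.60 to 1.04). Since the gene was chosen on this same contrast, the interval describes these libraries and is no test. The SPL3 values rested on 351, 446 and 307 reads in the mutant libraries and on 128, 133 and 210 reads in the Col-0 libraries. These and all reads of single genes below were recovered from the RPKM values. Counting error alone would give a spread of 5.26% between the mutant libraries and 8.14% between the Col-0 libraries, and the spreads seen were 5.03% in the mutant and 7.17% in Col-0. Over 14 alternative analyses of the same libraries the log2 fold change was between 0.63 and 0.88.

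The reads recovered for SPL3 cannot be assigned to its strand. RefSeq annotates a long non-coding RNA, AT2G33815, on the opposite strand, and its exons share 955 bases with those of SPL3, which is 97.3% of the SPL3 exons and 98.6% of its own. AT2G33815 had 339, 430 and 294 recovered reads in the mutant libraries, against 129, 132 and 211 in the Col-0 libraries. These are nearly the reads of SPL3, library by library. The sums over the 6 libraries were 1535 reads for AT2G33815 and 1575 for SPL3, so that the smaller sum was 97.5% of the larger. AT2G33815 averaged 16.5 ± 0.904 RPKM in the mutant and 9.29 ± 0.719 RPKM in Col-0 (SD, n = 3 each). Its reads may be the same as those of SPL3, so this is not taken as a second observation. Such near-equality was common in the table: of 23 opposite-strand pairs that share at least 90% of the exon bases of each and hold at least 100 reads, 17 had a smaller sum of at least 90% of the larger, and 3 had one under 50%. The libraries were made with a directional kit, per the labels' protocols, but the sources used here name neither the counter nor its strand setting. The higher value at this locus may therefore belong to the SPL3 messenger RNA, to the RNA of the opposite strand or to both, and these cannot be told apart.

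**Figure D2:**
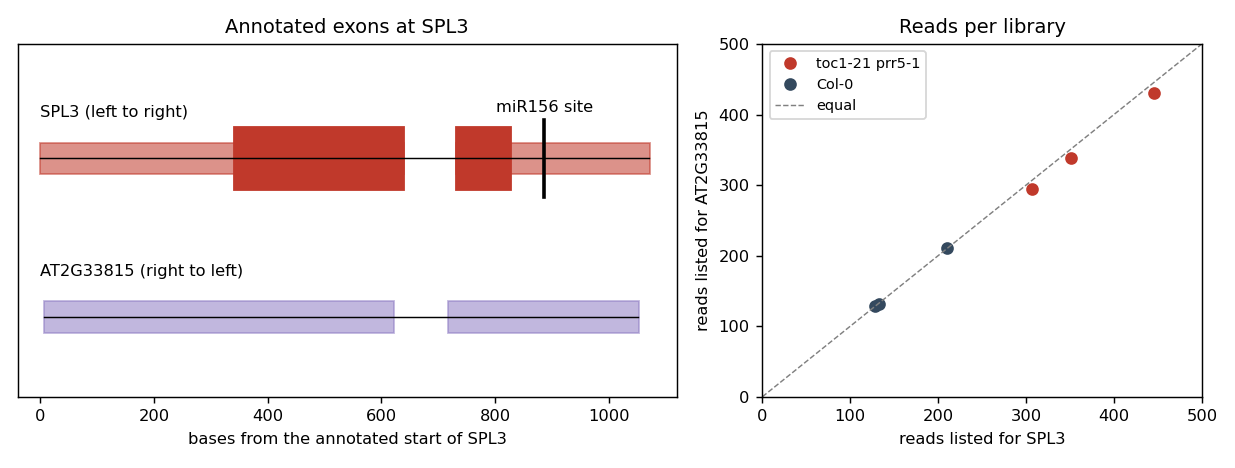
Left, annotated exons of SPL3 and of AT2G33815 by distance in bases from the start of SPL3 (tall blocks, coding sequence; low blocks, untranslated or non-coding exons; vertical bar, the miR156 site). Right, reads of AT2G33815 against reads of SPL3, both recovered from the RPKM values, 1 point per library, with a dashed line where they are equal. The 3 mutant libraries (red, 307 to 446 SPL3 reads) and the 3 Col-0 libraries (dark blue, 128 to 210) all lie close to that line.

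SPL4 did not rise with SPL3, and the reads of SPL5 were too few to tell. SPL4 (AT1G53160, chr1:19806263-19807705, plus strand) stood at 4.37, 4.08 and 3.51 RPKM in the mutant, against 4.09, 5.19 and 6.27 RPKM in Col-0. The lowest Col-0 library lay among the mutant ones, and the other 2 lay above them. The log2 fold change was -0.30 (SE 0.155, 95% interval -0.65 to 0.05), and over 13 alternative analyses it stayed below 0, from -0.43 to -0.17. SPL5 (AT3G15270, chr3:5140365-5142323, minus strand) was low, at 1.94, 1.12 and 0.615 RPKM in the mutant, against 1.37, 0.895 and 1.11 RPKM in Col-0. Its mutant libraries spread around all the Col-0 ones. These values rested on 36, 27 and 11 reads in the mutant and 18, 13 and 22 reads in Col-0, and the log2 fold change of 0.03 (SE 0.230, 95% interval -0.49 to 0.55) changed sign in 2 of 13 alternatives. An interval this wide does not show that SPL5 was at the same level in the genotypes. The opposite-strand gene AT3G15260 shares 477 bases with the annotated exons of SPL5, 25.5% of them. It was listed at a mean of 30.8 RPKM in the mutant and 32.8 RPKM in Col-0, against 1.224 and 1.125 RPKM for SPL5. Whether reads of AT3G15260 from the overlap were counted for SPL5 was not tested.

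SPL9 and SPL15 slow the initiation of new leaves and drive adult leaf traits, and SPL15 also promotes flowering at the shoot apex. SPL9 (AT2G42200, chr2:17587169-17589671, plus strand) stood at 3.98, 2.79 and 2.87 RPKM in the mutant, against 3.46, 3.83 and 5.20 RPKM in Col-0. Mutant replicate 1 lay above the 2 lower Col-0 libraries, and Col-0 replicate 3 lay above all the others. The log2 fold change was -0.29 (SE 0.171, 95% interval -0.67 to 0.09). SPL15 (AT3G57920, chr3:21444243-21446035, minus strand) stood at 1.47, 1.00 and 1.64 RPKM in the mutant, against 1.49, 0.897 and 0.983 RPKM in Col-0. The genotypes overlapped across most of their range, on 37 to 45 reads per mutant library and 20 to 30 reads per Col-0 library. Its log2 fold change was 0.16 (SE 0.187, 95% interval -0.26 to 0.58). All exon bases of SPL15, 1455 of them, lie within exons of AT3G57910 on the opposite strand, which averaged 6.77 RPKM in the mutant and 6.92 RPKM in Col-0. SPL15 itself averaged 1.37 RPKM in the mutant and 1.12 RPKM in Col-0, so the values of this pair were not nearly equal as at SPL3. The SPL15 values remain uncertain, since the strand setting of the counter is not given. Whether they hold reads of the opposite strand was not tested.

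SPL2, SPL10 and SPL11 act together on leaf shape and on the spread of trichomes to the lower leaf surface. SPL2 (AT5G43270, chr5:17360287-17363880, minus strand) stood at 14.2, 15.7 and 14.5 RPKM in the mutant, against 13.97, 12.1 and 18.1 RPKM in Col-0. The mutant libraries lay close together inside the range of the Col-0 ones, and the means were 14.8 ± 0.795 RPKM in the mutant and 14.8 ± 3.08 RPKM in Col-0 (SD, n = 3 each). The log2 fold change was 0.02 (SE 0.136, 95% interval -0.29 to 0.33). The Col-0 spread of 20.9% was well above the 4.75% that counting error alone would give on 353 to 723 reads. SPL10 (AT1G27370, chr1:9505112-9508542, minus strand) stood at 4.08, 3.05 and 4.18 RPKM in the mutant, against 3.20, 3.39 and 5.08 RPKM in Col-0. SPL11 (AT1G27360, chr1:9500892-9504023, plus strand), its neighbour on the chromosome, stood at 3.80, 3.34 and 3.89 RPKM in the mutant, against 4.31, 3.50 and 4.32 RPKM in Col-0. Both genes overlapped between the genotypes, with log2 fold changes of -0.03 (SE 0.176, 95% interval -0.42 to 0.37) for SPL10 and -0.11 (SE 0.132, 95% interval -0.40 to 0.19) for SPL11. The longest identical stretch of their transcripts was 43 bases. Whether reads that align with mismatches are shared between them was not tested.

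SPL6, which is known for a part in immune responses more than in leaf identity, is the last of the genes with the shared coding site. SPL6 (AT1G69170, chr1:26005068-26007368, plus strand) stood at 5.30, 3.76 and 3.37 RPKM in the mutant, against 5.01, 4.02 and 3.95 RPKM in Col-0. In each genotype replicate 1 was the highest, and the genotypes overlapped. The log2 fold change was -0.06 (SE 0.164, 95% interval -0.43 to 0.31).

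**Figure D3:**
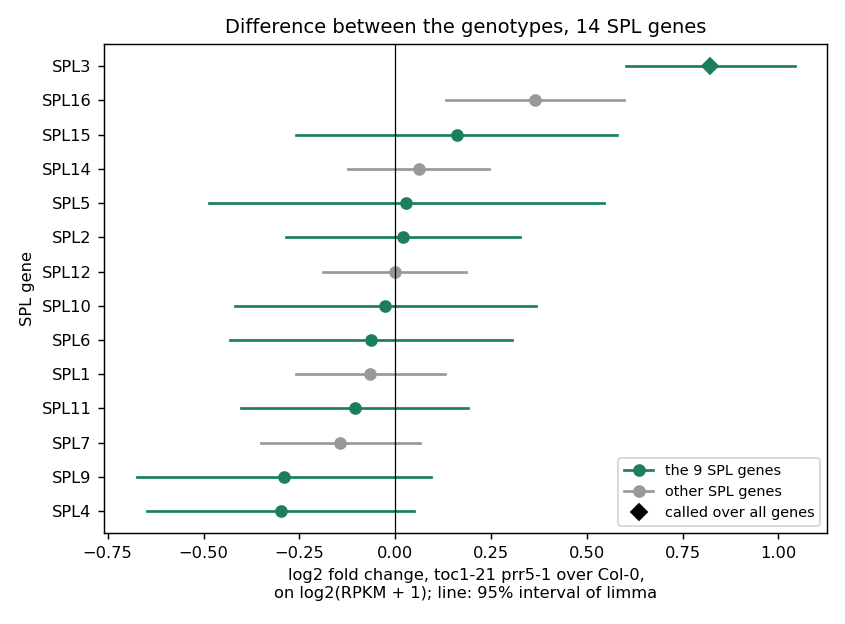
Log2 fold change (toc1-21 prr5-1 over Col-0, on log2(RPKM + 1)) of the 14 SPL genes that passed the filter, with lines for the 95% interval of limma over 3 libraries per genotype. SPL3, at 0.82, is the only gene marked as called (diamond), which for the genes chosen on this contrast is a description only. The intervals of the other 8 genes described here (green) and of SPL1, SPL7, SPL12 and SPL14 (grey) include 0. That of SPL16 (grey) runs from 0.13 to 0.60.

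The order of the SPL levels differed between the genotypes at its top. Since the SPL3 reads cannot be assigned to its strand, its rank and ratio may not be those of its messenger RNA. In every mutant library SPL3 was the highest of the 9 genes and SPL2 the next, while in every Col-0 library SPL2 was the highest and SPL3 the next. Per length, SPL3 was at 1.13 ± 0.0785 times SPL2 in the mutant and at 0.620 ± 0.0807 times SPL2 in Col-0 (SD, n = 3 each). In the mutant the order of mean RPKM went on with SPL6, SPL4, SPL10, SPL11, SPL9, SPL15 and SPL5, and in Col-0 with SPL4, SPL6, SPL9, SPL11, SPL10, SPL5 and SPL15. In the mutant the libraries' ranges were apart between SPL2 and SPL6 and between SPL9 and SPL15. Those of SPL3 and SPL2 met in the mutant, with the lowest SPL3 library and the highest SPL2 library both at 15.68 RPKM. In Col-0 the ranges were apart between SPL2 and SPL3, SPL3 and SPL4, and SPL10 and SPL5. All other neighbours in these orders overlapped. Tiers below the top pair were thus common to both genotypes, 5 genes near 3 to 5 RPKM and SPL5 with SPL15 near 1 RPKM.

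The summed level of the 9 genes was 56.4, 51.8 and 50.2 RPKM in the mutant, against 45.8, 42.2 and 54.7 RPKM in Col-0. Col-0 replicate 3 lay within the mutant range and the other Col-0 libraries below it. Without SPL3 the sums were 36.2 ± 2.55 RPKM in the mutant and 38.6 ± 5.80 RPKM in Col-0 (SD, n = 3 each), again overlapping. The SPL3 value, which cannot be assigned to a strand, made up 31.5 ± 1.11% of the sum in the mutant and 19.0 ± 1.17% in Col-0 (SD, n = 3 each). Among the 3 genes with a site in the 3′ UTR, its share was 76.3 ± 2.97% in the mutant and 58.9 ± 2.81% in Col-0. Single libraries left their mark across the 9 genes: Col-0 replicate 3 was the highest of its genotype for 6 of them, Col-0 replicate 2 the lowest for 5, and mutant replicate 1 the highest for 5. Without Col-0 replicate 3, the library with the low root signal, the log2 fold change was 0.87 for SPL3, -0.17 for SPL4, -0.15 for SPL9, 0.17 for SPL2 and 0.14 for SPL10, the last with a changed sign. The part of the root signal in the SPL values was not tested.

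The other 8 SPL genes in the table were listed apart, since most lack a miR156 site. SPL1, SPL7, SPL8, SPL12, SPL14 and SPL16 had 6 to 8 mismatches at their best stretch, while SPL13A and SPL13B carry the same site as SPL2. Of these 8 genes, 5 passed the filter and limma called 0, against 10.6% of all tested genes. At an unadjusted p under 0.05 there was 1, and limma-voom on reads recovered from the RPKM values called 1. That gene was SPL16, at 12.7, 13.1 and 13.2 RPKM in the mutant, against 10.5, 8.73 and 10.5 RPKM in Col-0. Its genotypes did not overlap, as for 27.0% of all tested genes, with all mutant libraries above the Col-0 ones. The log2 fold change of SPL16 was 0.37 (limma SE 0.104, adjusted p = 0.0551). It passed in 4 of 14 alternatives, with adjusted p from 0.0197 to 0.167. SPL14, its closest relative, shares an identical stretch of 91 bases with it and averaged 28.0 ± 1.15 RPKM in the mutant and 26.8 ± 1.06 RPKM in Col-0 (SD, n = 3 each, limma adjusted p = 0.749).

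SPL1 and SPL12, a related pair known for heat tolerance of flowers, were the SPL genes with the highest level. SPL1 averaged 45.9 ± 1.39 RPKM in the mutant and 48.2 ± 4.08 RPKM in Col-0 (SD, n = 3 each, limma adjusted p = 0.747), and SPL12 averaged 46.1 ± 0.627 RPKM in the mutant and 46.2 ± 3.67 RPKM in Col-0 (limma adjusted p = 0.997). SPL7, the regulator of copper uptake, stood at 13.7, 12.8 and 12.7 RPKM in the mutant, against 13.8, 14.4 and 15.4 RPKM in Col-0. Its groups did not overlap, as for 27.0% of all tested genes, but the gap was narrow and it did not pass (limma adjusted p = 0.431). SPL8, which acts in anthers, averaged 0.815 RPKM in the mutant and 0.968 RPKM in Col-0 and was below the filter. SPL13A was at 0.3004 RPKM or less in every library and SPL13B was listed at 0 in all. They share an identical stretch of 1817 bases, so both values are uncertain.

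The microRNA precursors gave few reads, and these reads are of precursor RNA, not of mature miR156. Of 12 MIR156 and MIR157 loci, 6 were tested. Of these 1 was called higher and 1 lower, against 3.90% and 6.65% of all tested genes, and 4 did not pass. Fitted with limma-voom on the recovered reads, 0 were called (adjusted p = 0.0559 for MIR156C and 0.319 for MIR157C). MIR156C was lower, at 3.54, 3.57 and 3.22 RPKM in the mutant, against 6.87, 4.83 and 5.58 RPKM in Col-0 (log2 fold change -0.59, SE 0.141, limma adjusted p = 0.0239). Its mutant libraries were close together and all below the Col-0 ones, where 27.0% of all tested genes had no overlap between the genotypes. Leaving out Col-0 replicate 1 ended the call (adjusted p = 0.107), as did leaving out mutant replicate 1, 2 or 3 (0.0766, 0.0730 and 0.0848), and over 13 alternatives adjusted p ran from 0.0147 to 0.107. MIR157C was higher, at 4.97, 4.07 and 2.43 RPKM in the mutant, against 1.66, 1.87 and 1.91 RPKM in Col-0 (log2 fold change 0.74, SE 0.201, limma adjusted p = 0.0443). It rested on 17, 18 and 8 reads in the mutant and 4, 5 and 7 reads in Col-0.

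The MIR157C call was lost without each Col-0 replicate (adjusted p = 0.139, 0.0787 and 0.0639 without replicates 1, 2 and 3) and without mutant replicates 1 and 2 (0.183 and 0.160), and over 13 alternatives adjusted p ran from 0.00854 to 0.319. MIR156A did not pass, at 8.82, 8.19 and 12.8 RPKM in the mutant, against 9.18, 20.3 and 17.6 RPKM in Col-0 (log2 fold change -0.56, limma adjusted p = 0.234). The lowest Col-0 library lay within the mutant range, and without it, Col-0 replicate 1, the gene passed (adjusted p = 0.0206, against 0.0206 to 0.509 over its 14 alternatives). MIR157A spread over both genotypes, at 2.65, 2.46 and 8.81 RPKM in the mutant, against 14.3, 0.678 and 8.92 RPKM in Col-0 (limma adjusted p = 0.847). MIR156D, named after its values were seen, averaged 6.31 ± 2.49 RPKM in the mutant and 2.61 ± 2.01 RPKM in Col-0 (SD, n = 3 each, limma adjusted p = 0.126) on 8 to 14 reads in the mutant and 1 to 9 in Col-0. It passed without Col-0 replicate 3 (adjusted p = 0.0191) and over 13 alternatives ran from 0.00166 to 0.336. None of the 5 MIR172 loci passed the filter, and 3 of them were listed at 0 in every library.

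The AP2-type genes, floral repressors restrained by miR172, were all tested. Of the 6, 1 rose, 1 fell and 4 did not pass, against 3.90% called higher and 6.65% called lower over all tested genes. SNZ rose, at 10.8, 9.78 and 11.6 RPKM in the mutant, against 3.25, 2.68 and 4.46 RPKM in Col-0 (log2 fold change 1.41, SE 0.155, limma adjusted p = 0.000266). Its lowest mutant library was above its highest Col-0 library by a wide margin. TOE2 fell, at 15.5, 16.2 and 16.01 RPKM in the mutant, against 22.0, 23.0 and 23.3 RPKM in Col-0 (log2 fold change -0.49, SE 0.083, limma adjusted p = 0.00397). Both calls were kept in 14 of 14 alternative analyses of the same libraries, with opposite signs. As the list was chosen with earlier results known, this is a description and no test. TOE1, the most abundant, averaged 37.2 ± 1.55 RPKM in the mutant and 39.3 ± 3.42 RPKM in Col-0 (SD, n = 3 each, limma adjusted p = 0.705). AP2 averaged 9.33 ± 0.666 RPKM in the mutant and 9.83 ± 1.32 RPKM in Col-0 (limma adjusted p = 0.835).

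Of 8 flowering genes downstream of SPL proteins, 4 passed the filter and were tested. Of these 0 rose, 1 fell and 3 did not pass, against 3.90% called higher and 6.65% called lower over all tested genes. SOC1, a MADS-box integrator of flowering signals, stood at 18.4, 18.0 and 17.8 RPKM in the mutant, against 20.7, 23.8 and 25.7 RPKM in Col-0 (log2 fold change -0.35, SE 0.098, limma adjusted p = 0.0483). All mutant libraries lay below the Col-0 ones, where 27.0% of all tested genes had no overlap between the genotypes. The call was lost without Col-0 replicates 2 and 3 (adjusted p = 0.0890 and 0.109) and without mutant replicates 1, 2 and 3 (0.134, 0.147 and 0.127), and over 14 alternatives adjusted p ran from 0.0363 to 0.147. AGL42 averaged 3.58 ± 0.346 RPKM in the mutant and 4.52 ± 1.68 RPKM in Col-0 (SD, n = 3 each, limma adjusted p = 0.643). AGL24 averaged 3.78 ± 0.179 RPKM in the mutant and 2.66 ± 0.517 RPKM in Col-0 (limma adjusted p = 0.138). FUL, a MADS-box gene reported as a direct target of SPL3 and named here after its values were seen, was below the filter, at 0.128, 0.364 and 0.488 RPKM in the mutant, against 1.70, 0.820 and 1.56 RPKM in Col-0. The groups did not overlap, on 3 to 11 reads in the mutant and 15 to 39 reads in Col-0, and with no filter it passed (log2 fold change -0.82, limma adjusted p = 0.0341).

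Trichome and pigment genes downstream of SPL9 were 3, of which 0 rose, 1 fell and 2 did not pass. Over all tested genes 3.90% were called higher and 6.65% lower. DFR, an enzyme of anthocyanin synthesis whose transcription SPL9 is known to hold back, fell to 3.23, 3.02 and 1.73 RPKM in the mutant, against 8.56, 5.55 and 7.87 RPKM in Col-0 (log2 fold change -1.19, SE 0.202, limma adjusted p = 0.00414). The groups were far apart, and the call was kept in 14 of 14 alternative analyses of the same libraries, which is a description only. The trichome repressors TRY and TCL1, which SPL9 activates, did not pass. TRY averaged 1.53 ± 0.370 RPKM in the mutant and 1.49 ± 0.496 RPKM in Col-0 (limma adjusted p = 0.956), and TCL1 averaged 1.59 ± 1.22 RPKM in the mutant and 0.977 ± 0.790 RPKM in Col-0 (SD, n = 3 each, limma adjusted p = 0.635).

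The trans-acting siRNA route is a second timer of leaf identity, in which AGO7 leads to small RNAs that restrain ARF3 and ARF4. All 6 of its genes were tested: 1 rose, 0 fell and 5 were not called, where limma called 10.6% of all tested genes. By limma-voom 3 were called, ARF3 and ARF4 among them. AGO7 stood at 6.15, 5.34 and 5.71 RPKM in the mutant, against 3.70, 3.71 and 4.22 RPKM in Col-0 (log2 fold change 0.46, SE 0.120, limma adjusted p = 0.0354). The groups did not overlap, but the call was lost without Col-0 replicates 1 and 2 (adjusted p = 0.127 and 0.0699) and without mutant replicates 1, 2 and 3 (0.159, 0.0833 and 0.0977). Over 14 alternatives its adjusted p ran from 0.0122 to 0.159. ARF3 averaged 13.8 ± 0.790 RPKM in the mutant and 17.3 ± 1.18 RPKM in Col-0 (SD, n = 3 each, log2 fold change -0.31, limma adjusted p = 0.0721). ARF4 averaged 17.9 ± 1.61 RPKM in the mutant and 23.9 ± 3.61 RPKM in Col-0 (log2 fold change -0.39, limma adjusted p = 0.0757), and without Col-0 replicate 2 it passed (adjusted p = 0.0152, against 0.0152 to 0.233 over its 14 alternatives). For both ARF genes all mutant libraries lay below all Col-0 ones, and 27.0% of all tested genes likewise had no overlap between the genotypes.

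Genes that make or use microRNAs gave no call. Of 6 tested, limma called 0, against 10.6% of all tested genes, with 0 at an unadjusted p under 0.05 and 0 called by limma-voom. AGO1, the slicer that carries miR156, averaged 82.4 ± 3.51 RPKM in the mutant and 78.1 ± 5.49 RPKM in Col-0 (SD, n = 3 each, limma adjusted p = 0.678). SE, a partner of the processing enzyme DCL1, averaged 32.3 ± 2.15 RPKM in the mutant and 30.5 ± 2.002 RPKM in Col-0 (limma adjusted p = 0.687). Of 11 upstream regulators of MIR156 transcription, limma called 0, with 1 at an unadjusted p under 0.05 and 0 called by limma-voom. HXK1, the glucose sensor, averaged 27.6 ± 1.62 RPKM in the mutant and 29.6 ± 0.977 RPKM in Col-0 (limma adjusted p = 0.583). The chromatin remodeller PKL averaged 27.7 ± 1.96 RPKM in the mutant and 25.3 ± 2.09 RPKM in Col-0 (limma adjusted p = 0.521).

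**Figure D4:**
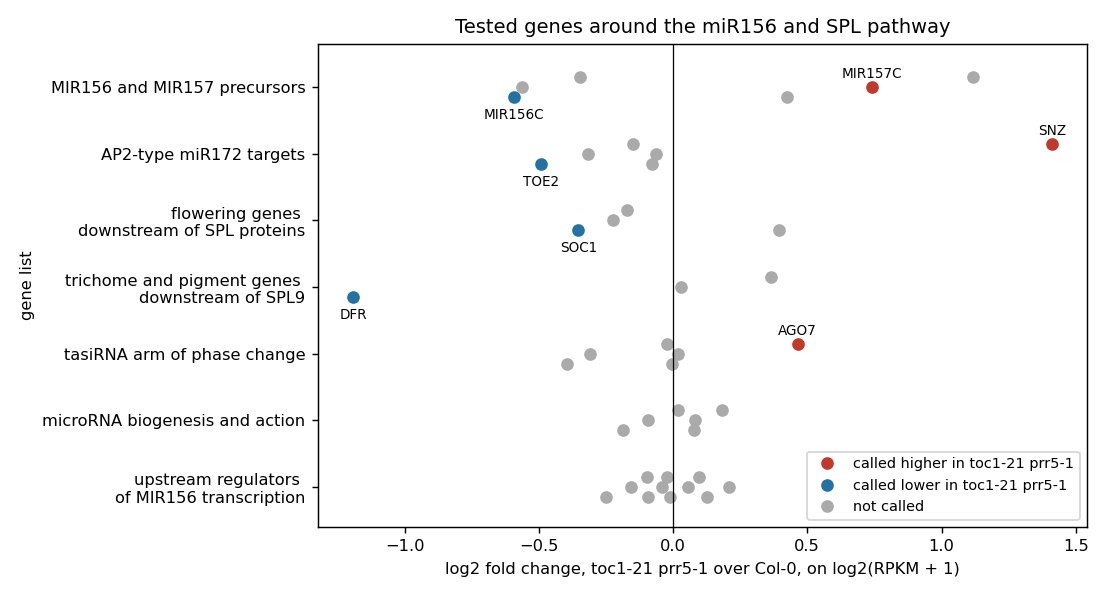
Log2 fold change (toc1-21 prr5-1 over Col-0, on log2(RPKM + 1)) of every tested gene of 7 lists around the miR156 and SPL pathway, 1 point per gene, in red where called higher, blue where called lower and grey where not called. The 7 labelled genes are called, from DFR at -1.19 to SNZ at 1.41, and the points of the 2 lowest lists all lie between -0.25 and 0.21.

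Markers of the cells a whole seedling holds were compared, because SPL genes are expressed unevenly between tissues. Of 7 mesophyll and photosynthetic genes, 2 rose and 1 fell, against 3.90% called higher and 6.65% called lower over all tested genes. RCA averaged 2912 ± 270 RPKM in the mutant and 2033 ± 94.2 RPKM in Col-0 (SD, n = 3 each, limma adjusted p = 0.0295). PSBO1 averaged 2075 ± 81.1 RPKM in the mutant and 1366 ± 109 RPKM in Col-0 (limma adjusted p = 0.00743). RBCS2B averaged 2047 ± 178 RPKM in the mutant and 3042 ± 354 RPKM in Col-0 (limma adjusted p = 0.0272). Over their alternatives the adjusted p ran from 0.00151 to 0.172 for RCA, 0.000264 to 0.0558 for PSBO1 and 0.00175 to 0.157 for RBCS2B. The RCA call ended without Col-0 replicate 1 (adjusted p = 0.120) and when mutant replicate 1 or 2 was left out (0.149 and 0.148), and that of RBCS2B without Col-0 replicate 1 (0.0847) and when mutant replicate 1, 2 or 3 was left out (0.0642, 0.135 and 0.0970). RBCS1A, at 10120 RPKM in the mutant and 9431 RPKM in Col-0, and RBCS3B, at 6193 RPKM in the mutant and 5792 RPKM in Col-0, did not pass (limma adjusted p = 0.809 and 0.808). The summed level of the list was 24550 to 27190 RPKM in the mutant and 22940 to 27110 RPKM in Col-0.

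Of 7 root genes, 6 were tested and limma called 0, against 10.6% of all tested genes. Of the 6, 0 had an unadjusted p under 0.05 and limma-voom called 0. PRP3 averaged 31.2 ± 6.48 RPKM in the mutant and 21.0 ± 9.87 RPKM in Col-0, and CASP1 averaged 23.0 ± 1.02 RPKM in the mutant and 25.2 ± 6.39 RPKM in Col-0 (SD, n = 3 each, limma adjusted p = 0.276 and 0.817). Col-0 replicate 3 was the lowest of its genotype for all 7 root genes, and its sum of 43.0 RPKM alone set the low end of the Col-0 range. Without it CASP2 passed as lower in the mutant (adjusted p = 0.0463, against 0.0463 to 0.972 over its 14 alternatives). Of 9 shoot meristem genes, 5 were tested and 1 rose, against 3.90% of all tested genes, while limma-voom called 0. STM, which keeps meristem cells undifferentiated, stood at 5.34, 5.75 and 7.46 RPKM in the mutant, against 3.87, 4.35 and 3.77 RPKM in Col-0 (limma adjusted p = 0.0451). Leaving out any of the 6 libraries ended that call, at adjusted p 0.139, 0.0516 and 0.0881 without Col-0 replicates 1 to 3 and 0.0639, 0.103 and 0.151 without mutant replicates 1 to 3, and over 14 alternatives it ran from 0.0354 to 0.151. CLV1 and KNAT1 did not pass (limma adjusted p = 0.655 and 0.388), and the defining stem cell genes CLV3 and WUS were at or near 0. The summed meristem level was 51.0 to 59.2 RPKM in the mutant and 49.8 to 59.2 RPKM in Col-0. Of 6 floral organ genes only SEP3 was tested, and it was not called (limma adjusted p = 0.470, with 0 at an unadjusted p under 0.05 and 0 called by limma-voom); the list summed to 1.81 to 3.10 RPKM in the mutant and 2.53 to 3.05 RPKM in Col-0. The part of cell composition in the SPL3 value was not tested.

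The surroundings of the SPL genes on the chromosomes differed in how many genes were called. Among the 100 nearest tested genes, 50 on each side, 28.0% were called around SPL6, 24 of them lower and 4 higher in the mutant, and 18.0% around SPL5. Among the called genes around SPL3 was AT2G33815, whose reads may be those of SPL3. With it, the share around SPL3 was 11.0%, close to the 10.6% of all tested genes. It was 10.0% around SPL9, with 9 of the 10 called genes higher, and 8.0% around SPL2. Around SPL4, SPL10, SPL11 and SPL15 it was 3.0% or less, and with 100 tested genes on each side it was 4.5% around SPL4, 2.0% around SPL10 and SPL11 and 6.0% around SPL15. The immediate neighbours of SPL3 in gene order, EMB3113 before it and MBAC1 after it and its antisense partner, were not called (limma adjusted p = 0.818 and 0.868). AGP30, an arabinogalactan protein gene and the third tested gene before SPL3, averaged 43.6 RPKM in the mutant and 14.3 RPKM in Col-0 (limma adjusted p = 0.00143). AT2G33830, the third after it, averaged 765.8 RPKM in the mutant and 1077 RPKM in Col-0 (limma adjusted p = 0.0403).

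**Figure D5:**
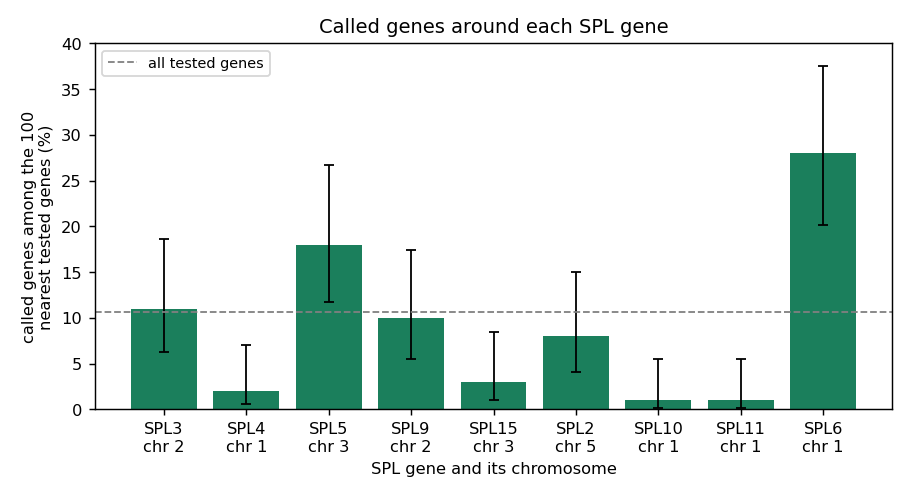
Percent of the 100 nearest tested genes (50 on each side) that were called between toc1-21 prr5-1 and Col-0, for each SPL gene with its chromosome, with 95% Wilson intervals that cover counting only and treat neighbouring genes as independent. The dashed line is the 10.6% of all tested genes; the bar of SPL6 reaches 28.0% (interval 20.1 to 37.5), and those of SPL10 and SPL11, which share most of their neighbours, stand at 1.0%.

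Promoters were searched for motifs tied to the clock and to SPL proteins, in the 250 bases before and 50 bases after each annotated gene start, on both strands. The evening element AAAATATCT was in 0 of the 9 promoters, against 2.82% of 27443 promoters, and the G-box CACGTG in 0 of 9, against 7.68%. The CCA1-binding site AAAAATCT was in 2 of 9, SPL10 and SPL15, against 7.88%, and the SBP core GTAC in 4 of 9, SPL4, SPL6, SPL11 and SPL15, against 39.0%. None of the 4 motifs lies within another. The promoter of SPL3 held none of them, which says only that these letters are not in that window.

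SPL2 had the highest mean RPKM of the 9 genes over all 6 libraries, and the genes with the pattern most like it were sought among all other tested genes. Likeness was the root mean square difference of log2(RPKM + 1) over the 6 libraries, each gene centred on its own mean. The closest were AT1G56345, at a difference of 0.026, AT1G13410, at 0.028, and AT3G13740, at 0.035. AT1G56345 averaged 3.08 RPKM in the mutant and 3.13 RPKM in Col-0, AT1G13410 averaged 1.96 RPKM in the mutant and 1.90 RPKM in Col-0, and AT3G13740 averaged 25.01 RPKM in the mutant and 24.9 RPKM in Col-0. With 6 libraries such closeness is a description only.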

How the data were processed

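RNA sequencing libraries of whole seedlings, 3 of toc1-21 prr5-1 and 3 of Col-0, were compared as the titles group them. The authors deposited 1 table of RPKM per library, per the file headers, and per the submitters' processing notes used TopHat2, TopHat and edgeR with TAIR10. The sources used here give no versions, counter or strand setting. RPKM steps gave whole reads for 25139 of 25139 genes above 0 (100.0%, within 0.002 reads), with depths of 20737672, 26792712 and 19956080 reads in mutant replicates 1 to 3 and 14617043, 16199047 and 22173648 in Col-0 replicates 1 to 3. The recovered reads summed to 99.53% to 99.58% of each depth. For 20233 genes the smallest fitting length was used, so their reads are too few where the true reads share a factor. Libraries of a genotype differed by more than counting error (chi-square per degree of freedom 5.97 to 21.52), so none was taken for a copy.

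limma 3.58.1 (R 4.3.3) with a mean-variance trend was fitted to log2(RPKM + 1) of the 19710 genes that reached 1 RPKM in 3 or more libraries. Genotype was the only term, with Benjamini-Hochberg adjustment at 0.05. The fit was first run on counts simulated with the same added spread for every gene, which does not show its error rate on these libraries. Intervals are at 95%, and counting intervals and errors cover counting only. limma-voom on the recovered reads called 2229 genes. Alternatives were other pseudocounts, filters and scalings, limma-voom, a replicate block and leaving out each library. Same-numbered replicates correlated at -0.03, 0.15 and 0.04 in their deviations, so they were not taken as pairs.

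The 9 genes, the gene lists and the markers were chosen with earlier results of these data known. Named are the 9 genes, the other 8 SPL genes, TOC1 and PRR5, and of each list up to 4 called genes by adjusted p and up to 2 not passing with the highest mean RPKM, beside genes said to be picked later and the 3 most like SPL2. Positions and sequences come from RefSeq's TAIR10.1, matched by locus. No coordinates are in the deposited tables, and none were converted.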

Additional observations from a re-analysis of the deposited data

How the results depend on the processing

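Over 14 alternatives, 78 results for single genes gave 1061 values, of which 947 kept their sign and their side of the threshold. Another 53, from 23 results not called in either fit, changed sign, 11 passed the threshold where the result had not, and 50 lost it. The log2 fold change of SPL3 was between 0.63 and 0.88; with a filter of 5 RPKM only SPL2 and SPL3 were tested. Genes called over the table numbered 2080 and ranged from 1222 to 2085 when 1 library was left out, at 1222 without Col-0 replicate 1, while mutant replicates 1 and 2, each left out in turn, gave 1294 and 1313; the smaller number of samples is part of that fit. The 7 called genes of the pathway lists became 4 with no filter and 3 to 6 with 1 library left out in turn (3, 3 and 4 genes without mutant replicates 1, 2 and 3). With 25 tested genes on each side, the called share became 0.0% around SPL4, SPL10, SPL11 and SPL15. With 100 on each side it was 4.5% around SPL4, 2.0% around SPL10 and SPL11 and 6.0% around SPL15. With the replicate number as a block, 2114 genes were called; among list genes and markers SOC1, AGO7 and STM lost their call (adjusted p = 0.0685, 0.0632 and 0.0564) and MIR156D gained one (adjusted p = 0.00166). SPL5 rested on 11 to 36 reads per library and SPL15 on 20 to 45, which limits what could be detected.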
